A study of Homo sapiens with 12 samples.

Results

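The nuclear genes of respiratory complexes II to V were followed in 12 RNA-seq libraries of HCT116 cells. Genes were chosen by name from the 18969 listed: SDHA to SDHD, all names starting with UQCR, CYC1, CYCS, and names starting with COX4 to COX8 or ATP5. Of 52 names that match, 44 reached at least 1 CPM (a gene's count scaled to the size of its library) in at least 4 of the 12 libraries, and these 44 are the members described here. All 44 were among the 12741 genes tested. By their known products, 4 belong to complex II, 9 to complex III, 1 is cytochrome c, 11 belong to complex IV and 15 to complex V. The other 4 are COX7A2L, a protein like subunit 7A that links complexes into supercomplexes, and 3 genes whose names match but whose products are not subunits (COX4NB, ATP5S and ATP5SL). The symbols are those of the deposited files.

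HCT116 is an established line from a human colorectal carcinoma, grown in RPMI-1640 with 10% serum, and the libraries form 3 groups of 4. In the DMSO recovery and UNC0642 recovery groups, the cells had been kept for 24 h in medium without methionine together with DMSO or UNC0642, and then for 24 h in complete medium from which the inhibitor was absent. UNC0642 inhibits the histone H3 lysine 9 methyltransferases EHMT1 and EHMT2. The last group is labelled 0 h, and the labels do not say whether these cells were taken before or after the restriction. Separate cultures are not named for the 4 replicates either, and p-values here reflect only how far these samples differ from each other, which may be a technical matter.

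Total expected counts ran from 14658082 to 20179847 per library, and the members took 0.784% to 0.885% of them. The epithelial markers EPCAM, CDH1, KRT8, KRT18 and KRT19 were at 45.1 CPM or more in all 12 libraries, while CEACAM5 and CEACAM6 stayed under 1 CPM. The gap between gene length and the deposited effective length placed 5 libraries at 101 to 106 bases (0 h 3 and 4, DMSO 1, UNC0642 1 and 4) and the other 7 at 120 to 127 bases. DMSO 1 was therefore the only DMSO library of its class, and it held values far from the other DMSO libraries in 5 member genes, of which UQCRQ was a borderline case. COL1A2, a fibroblast collagen gene, was above 1 CPM in 6 libraries (0 h 1 to 3, DMSO 1, UNC0642 3 and 4). Counts of calls, and the calls lost, are given below for fits without these libraries or within each class.

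Complexes II, III and IV pass electrons from succinate to oxygen. Succinate dehydrogenase, which is complex II and also an enzyme of the citric acid cycle, reduces ubiquinone, complex III hands the electrons on to the small carrier cytochrome c, and complex IV, cytochrome c oxidase, gives them to oxygen. Complexes III and IV pump protons across the inner membrane, and complex V, the ATP synthase, uses the return flow to make ATP. Complex II is encoded wholly in the nucleus, whereas the catalytic core of complex IV and parts of complexes III and V come from mitochondrial DNA, so that the members are the nuclear share. Promoters of such genes are known for sites of the transcription factors NRF1 and GABP (an ETS factor), and some also for YY1 and SP1.

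Promoter sequences of the members were read for the letters of these factors. In the RefSeq promoter table for GRCh38.p14, 35 of the 44 members had a sequence of 300 bases, from 250 before to 50 after the start. Both strands were searched for exact matches, and no matches of different motifs overlapped in these promoters. The letters CCGGAAG of GABP were found in 16 of the 35 (45.7%) and in 10.5% of all 27305 promoters of the same length. The core GCGCANGCG of NRF1 was found in 10 (28.6% against 7.68%), AAGATGGC of YY1 in 5 (14.3% against 3.03%), and GGGCGG of SP1 in 20 (57.1% against 43.4%). These letters were therefore more frequent in member promoters than in promoters at large for each of the 4 motifs. The promoters at large were not limited to genes expressed in these cells, so the excess is not shown to be particular to respiratory genes. A match is a string of letters and was not tested as a binding site.

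The 5 sequences printed here show what such a promoter looks like in members that were lower after recovery (UQCR11 of complex III, COX5B and COX8A of complex IV) and in members that were not (COX6A1 of complex IV and UQCR10 of complex III). They were chosen after the values were seen, among windows with few annotated exon bases. Each runs 5′ to 3′ on the strand of the gene over the 250 bases that end at its start, in lower case, with the matches that end before the start in capitals.
UQCR11, chr19:1605463-1605712, minus strand: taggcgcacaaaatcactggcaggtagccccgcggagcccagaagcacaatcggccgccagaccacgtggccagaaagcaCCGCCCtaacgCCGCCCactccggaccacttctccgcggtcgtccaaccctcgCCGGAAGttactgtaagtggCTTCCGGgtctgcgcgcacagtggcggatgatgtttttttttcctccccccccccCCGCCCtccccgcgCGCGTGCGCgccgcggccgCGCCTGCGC
COX5B, chr2:97645812-97646061, plus strand: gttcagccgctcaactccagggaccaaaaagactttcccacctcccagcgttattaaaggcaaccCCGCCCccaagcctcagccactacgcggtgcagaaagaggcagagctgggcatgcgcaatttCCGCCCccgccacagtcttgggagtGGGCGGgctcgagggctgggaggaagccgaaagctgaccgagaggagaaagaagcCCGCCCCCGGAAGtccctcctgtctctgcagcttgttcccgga
COX8A, chr11:63974370-63974619, plus strand: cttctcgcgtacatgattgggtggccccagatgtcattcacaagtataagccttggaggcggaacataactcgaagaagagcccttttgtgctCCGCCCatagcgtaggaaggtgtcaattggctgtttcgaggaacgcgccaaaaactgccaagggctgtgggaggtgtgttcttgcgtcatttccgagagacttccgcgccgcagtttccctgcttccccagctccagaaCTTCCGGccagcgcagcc
COX6A1, chr12:120437863-120438112, plus strand: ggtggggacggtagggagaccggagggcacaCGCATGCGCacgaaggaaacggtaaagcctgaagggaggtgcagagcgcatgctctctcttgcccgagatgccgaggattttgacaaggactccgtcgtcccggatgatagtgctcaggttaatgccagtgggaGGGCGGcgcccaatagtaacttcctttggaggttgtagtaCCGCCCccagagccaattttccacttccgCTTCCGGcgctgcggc
UQCR10, chr22:29767119-29767368, plus strand: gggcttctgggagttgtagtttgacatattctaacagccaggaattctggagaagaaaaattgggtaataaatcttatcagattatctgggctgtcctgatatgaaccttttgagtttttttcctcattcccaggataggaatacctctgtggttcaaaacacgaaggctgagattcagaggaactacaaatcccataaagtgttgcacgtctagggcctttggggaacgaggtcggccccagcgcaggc
UQCR11 held GABP letters on each strand, 117 and 97 bases before the start, and NRF1 letters 28 and 9 bases before it. In COX5B, COX8A and COX6A1 the GABP letters lay 37, 18 and 16 bases before the start. COX5B held a further GABP match that begins 5 bases before the start and runs past it, so that it is not in capitals. COX6A1, which was not called in any comparison, thus carried the same GABP letters as the genes that were lower, and UQCR10, not called either, held 1 NRF1 match, which begins 8 bases before the start and ends past it, and no match of the other 3 motifs. Among the 16 members with a GABP match 14 were lower after DMSO recovery, and among the 19 without a match 11 were. For NRF1 these counts were 5 of 10 with a match and 20 of 25 without, for YY1 2 of 5 and 23 of 30, and for SP1 14 of 20 and 11 of 15. The share lower after DMSO recovery was thus greater with a match for GABP, smaller for NRF1, YY1 and SP1, and none of these differences was tested. Calls after UNC0642 recovery were not counted by motif, and these directions need not hold there. ATP5O and SDHB, each with YY1 and SP1 matches, were lower only after UNC0642 recovery. ATP5H, with GABP and SP1 matches, and CYCS, with none, were lower only after DMSO recovery.

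The comparison of DMSO recovery with 0 h shows how the recovered cells stood against the 0 h state. Of the 44 members 32 were lower after DMSO recovery, 2 were higher and 10 were not called. Over all genes tested 21.7% were called lower and 22.4% higher. The median of the members was a log2 fold change of -0.16, or -10.6%, beside 0.01 for all genes tested, and the members ranged from -0.45 for ATP5E to 0.17 for COX6B2, which was not called. In 28 members (63.6%) the 4 DMSO libraries did not overlap the 4 libraries at 0 h, 27 of them downward, against 38.3% of all genes (19.0% downward and 19.3% upward). Calls are from edgeR's quasi-likelihood test with Benjamini-Hochberg adjustment over all genes, at an adjusted p under 0.05. In bulk RNA, fewer cells with these transcripts and less RNA per cell cannot be told apart.

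UNC0642 recovery against 0 h uses the same 0 h libraries, so its values stand beside the DMSO values and are no independent repeat of them. Of the 44 members 31 were lower and 13 were not called, with 23.6% of all genes called lower. None was called higher by edgeR, where 23.4% of all genes were. At an unadjusted p under 0.05 the count was 1 higher, DESeq2 and limma-voom called 0, and scaling by library totals alone called 3. The median was -0.18, or -11.6%, beside 0.01 for all genes, and in 29 members (65.9%, against 40.2% of all genes) the groups did not overlap, each time downward, where all genes were split evenly at 20.1% in each direction. Set side by side, 29 members were lower in both comparisons, ATP5H, CYC1 and CYCS were called lower only after DMSO recovery, and ATP5O and SDHB only after UNC0642 recovery. None of these 5 was called between the recovery groups. Without the 6 libraries with COL1A2 above 1 CPM the counts lower were 24 and 23, where 0 h 4 alone stands for 0 h and is assumed to vary like the libraries of the other groups. In that fit ATP5H, ATP5L, COX5A, COX7B, CYC1, SDHD, UQCRC2, UQCRFS1 and the higher ATP5D lost their calls after DMSO recovery (adjusted p from 0.052 to 0.758). After UNC0642 recovery the calls lost were those of ATP5L, ATP5O, COX4NB, COX5A, SDHB, SDHC, SDHD, UQCRC2 and UQCRFS1 (adjusted p from 0.0606 to 0.294). UQCRFS1 after DMSO recovery was there at -0.03 in place of -0.10, while SDHC after UNC0642 recovery was at -0.18 in place of -0.16. Fewer of all genes were called, too, in that fit and in the fits within each gap class. Within the short-gap libraries, where DMSO 1 alone stands for its group, 17 calls were lost after DMSO recovery and 7 after UNC0642 recovery, and within the long-gap libraries 3 and 0.

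Summed over the members, expression was 8812.6 to 9088.6 CPM in the 0 h libraries, 7818.8 to 8197.9 CPM after DMSO recovery and 7685.9 to 8020.7 CPM after UNC0642 recovery. The recovery libraries thus lay below each 0 h library. Library by library, the median log2 difference of the members from the 0 h mean was between -0.11 and -0.19 in the DMSO libraries and between -0.15 and -0.21 in the UNC0642 libraries, with DMSO 1 the closest to 0. Summed epithelial markers were 4920 to 5040 CPM at 0 h, 5540 to 5690 CPM after DMSO recovery and 5560 to 5770 CPM after UNC0642 recovery. KRT8, KRT18, KRT19 and CDH1 were called higher in both comparisons with 0 h, but EPCAM was called lower (-0.10 ± 0.02 and -0.18 ± 0.02). The part of the epithelial markers in the result was not tested. Fibroblast markers summed to 19.8 to 40.1, 25.1 to 34.8 and 25.9 to 35.2 CPM in the same order, of which COL1A1 gave most (mean 26.2 CPM). For blood markers, mostly CD68 (mean 7.58 CPM), the ranges were 8.97 to 12, 8.29 to 10.4 and 8.99 to 12 CPM. The scarcer markers moved otherwise than these sums. COL1A2 (mean 1.53 CPM), DCN and COL3A1 were called lower after DMSO recovery, at -2.49 ± 0.81, -2.53 ± 0.88 and -1.95 ± 0.69, and were not called after UNC0642 recovery. The globin genes HBA1, HBB and HBA2, each under 1 CPM on average, were called lower after DMSO recovery (-1.36 ± 0.32, -1.72 ± 0.45 and -1.68 ± 0.57), and HBB and HBA1 also after UNC0642 recovery. The part of these markers in the members' values was not tested. The other marker lists, endothelium and muscle and heart, were at most 0.956 and 3.06 CPM in any library.

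**Figure D1:**
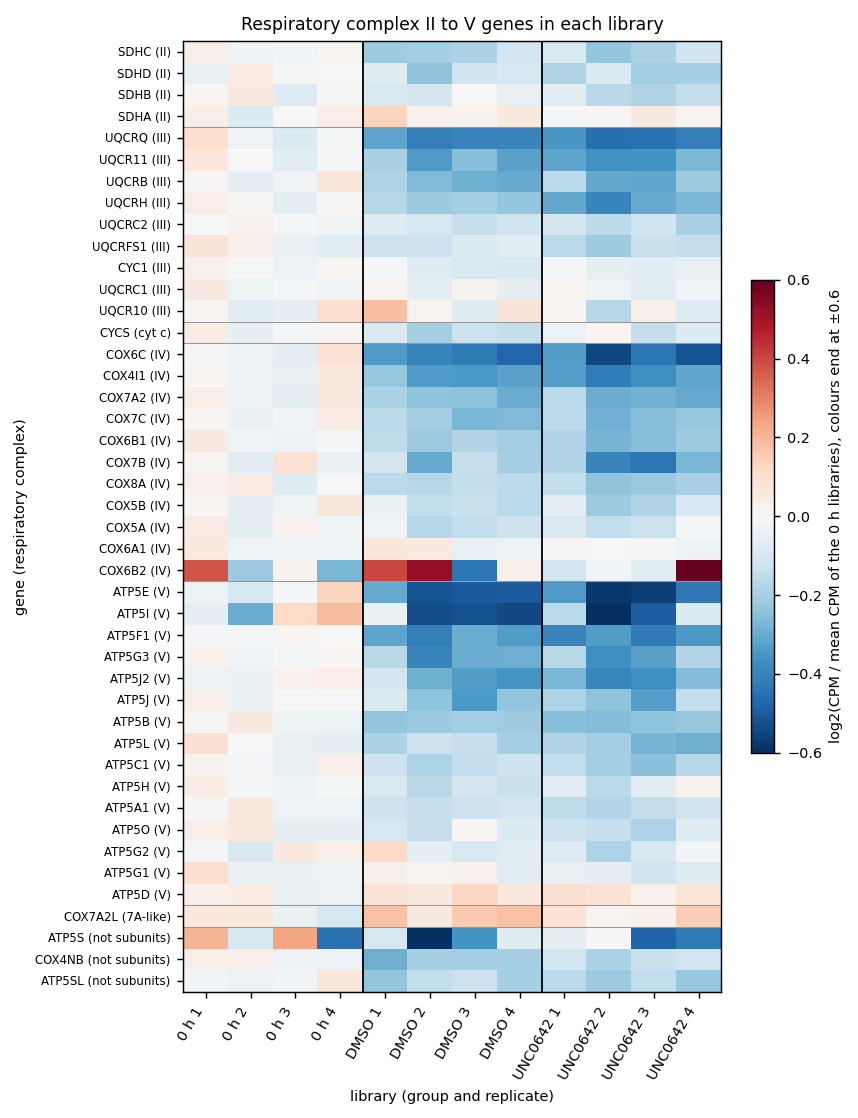
Each row is a member gene, grouped by complex, and each column a library. Colour gives log2 of the CPM over the mean CPM of the 0 h libraries and ends at 0.6 in either direction; most rows are lower in the 8 recovery libraries, while SDHA, UQCRC1, UQCR10, COX6A1 and ATP5D hold paler or mixed colours.

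Complex II had 2 of 4 members lower after DMSO recovery (median -0.10) and 3 of 4 after UNC0642 recovery (median -0.15). SDHA, the flavoprotein that oxidises succinate, was at 167.4, 154.1, 163.8 and 167.9 CPM at 0 h, at 178.9, 166.5, 165.5 and 169.9 CPM after DMSO recovery, and at 162.1, 164.0, 169.6 and 165.3 CPM after UNC0642 recovery. The 3 groups overlapped, and SDHA was called in neither comparison with 0 h (0.06 ± 0.03, SE, adjusted p = 0.125, and 0.02 ± 0.03, adjusted p = 0.676). SDHC, which anchors the enzyme in the membrane at its heme, was at 103.3, 98.7, 99.7 and 101.9 CPM at 0 h, at 86.9, 87.6, 88.4 and 93.3 CPM after DMSO recovery, and at 94.7, 86.0, 88.4 and 92.8 CPM after UNC0642 recovery. Every recovery library of SDHC lay below every 0 h library, with log2 fold changes of -0.18 ± 0.04 (adjusted p = 0.000202) and -0.16 ± 0.04 (adjusted p = 0.000817). SDHD, the other anchor, was at 117.8, 125.5, 120.7 and 121.4 CPM at 0 h, at 115.4, 102.7, 111.7 and 113.3 CPM after DMSO recovery, and at 107.0, 114.2, 105.1 and 105.5 CPM after UNC0642 recovery. It too was lower without overlap, by -0.13 ± 0.04 (adjusted p = 0.00461) and -0.17 ± 0.04 (adjusted p = 0.000327). The iron-sulfur subunit SDHB changed by -0.06 ± 0.04 (adjusted p = 0.155) and -0.14 ± 0.04 (adjusted p = 0.00162), and its groups overlapped. Within complex II, then, the catalytic flavoprotein was not called and both anchors were lower in the fit reported. The SDHD call after DMSO recovery was lost with library totals (-0.08, adjusted p = 0.0919) and log2 FPKM (-0.07, adjusted p = 0.155). SDHD was at -0.07 in the short-gap libraries, where DMSO 1 alone stands for its group. SDHA was called higher after DMSO recovery with library totals and log2 FPKM, and after UNC0642 recovery with library totals. The difference between SDHA and the anchors was not tested.

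In complex III 7 of 9 members were lower after DMSO recovery (median -0.11) and 6 of 9 after UNC0642 recovery (median -0.16). UQCRC1, a core subunit that faces the matrix, was at 214.9, 203.5, 205.6 and 203.8 CPM at 0 h, at 209.6, 199.3, 210.3 and 198.6 CPM after DMSO recovery, and at 209.6, 203.5, 198.1 and 204.5 CPM after UNC0642 recovery. The groups overlapped almost wholly, at -0.02 ± 0.03 in each comparison (adjusted p = 0.656 and 0.573). CYC1, cytochrome c1, which passes electrons to cytochrome c, was at 413.6, 405.3, 396.2 and 410.2 CPM at 0 h, at 403.9, 386.0, 381.2 and 380.2 CPM after DMSO recovery, and at 404.9, 392.2, 387.0 and 393.8 CPM after UNC0642 recovery. Its call after DMSO recovery was slight (-0.07 ± 0.03, adjusted p = 0.0278), the groups overlapped, and the call was lost without any 1 of 0 h 1, 0 h 4, DMSO 2, DMSO 3 or DMSO 4. In the short-gap libraries alone CYC1 was at 0.002 (adjusted p = 0.978). After UNC0642 recovery it changed by -0.04 ± 0.03 (adjusted p = 0.162).

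Larger falls in complex III came in its small subunits, which surround the core and help to bind ubiquinone or to hold the complex together. UQCRQ had the largest, at 167.2, 153.5, 147.4 and 155.4 CPM at 0 h, at 125.3, 117.1, 118.5 and 118.4 CPM after DMSO recovery, and at 122.3, 114.1, 114.2 and 117.1 CPM after UNC0642 recovery. The lowest 0 h library was well above the highest recovery library, with log2 fold changes of -0.38 ± 0.04 (adjusted p = 2.14e-10) and -0.42 ± 0.04 (adjusted p = 2.29e-11). UQCR11 followed at -0.28 ± 0.04 and -0.33 ± 0.04, and UQCRB at -0.26 ± 0.03 and -0.25 ± 0.03. UQCR10 was not called (0.06 ± 0.05 and -0.04 ± 0.05). UQCRH, the hinge protein that docks cytochrome c, was at 259.8, 253.6, 243.1 and 254.0 CPM at 0 h, at 224.3, 216.2, 219.6 and 215.3 CPM after DMSO recovery, and at 204.0, 192.1, 204.9 and 209.2 CPM after UNC0642 recovery. Its 3 groups formed 3 separate ranges in that order. The changes from 0 h were -0.21 ± 0.03 (adjusted p = 5.27e-07) and -0.32 ± 0.03 (adjusted p = 7.46e-11). UQCRH has a near-identical copy, UQCRHL, which was given 4 counts over all libraries, and reads of the pair may be split between them. The Rieske iron-sulfur protein gene UQCRFS1 changed by -0.10 ± 0.03 and -0.16 ± 0.03 and core subunit gene UQCRC2 by -0.11 ± 0.03 and -0.15 ± 0.03, all called. The UQCRFS1 call after DMSO recovery was lost without 0 h 1 (-0.08, adjusted p = 0.0731). It was also lost with library totals (-0.05, adjusted p = 0.237), log2 FPKM (-0.035, adjusted p = 0.438) and length with GC content (-0.06, adjusted p = 0.0937). The UQCRC2 call after DMSO recovery was lost with library totals (-0.06, adjusted p = 0.0959) and log2 FPKM (-0.05, adjusted p = 0.122). In the short-gap libraries both genes were at -0.07 after DMSO recovery.

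CYCS, cytochrome c itself, also takes part in apoptosis when it leaves mitochondria. Its values were 441.4, 414.4, 426.6 and 432.2 CPM at 0 h, 403.9, 373.5, 392.5 and 388.8 CPM after DMSO recovery, and 418.3, 431.8, 388.4 and 405.5 CPM after UNC0642 recovery. The DMSO libraries all lay below the 0 h libraries, whereas 2 UNC0642 libraries fell within the 0 h range. CYCS was lower after DMSO recovery (-0.14 ± 0.03, adjusted p = 0.00023), changed by -0.06 ± 0.03 after UNC0642 recovery (adjusted p = 0.0839), and differed by 0.08 ± 0.03 between the recovery groups (adjusted p = 0.136). Without 0 h 2 or without UNC0642 2 it was called lower after UNC0642 recovery as well (adjusted p = 0.0418 and 0.0167). The gene has processed copies in the genome that could take some of its reads.

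Complex IV had 9 of 11 members lower in both comparisons with 0 h, with medians of -0.18 and -0.23. COX4I1, the ubiquitous form of the subunit at which ATP inhibits the enzyme, was at 436.2, 421.5, 419.2 and 449.6 CPM at 0 h, at 368.4, 341.1, 339.5 and 345.7 CPM after DMSO recovery, and at 343.2, 323.1, 334.8 and 348.3 CPM after UNC0642 recovery. No recovery library came near the 0 h range, and the log2 fold changes were -0.31 ± 0.03 (adjusted p = 1.74e-10) and -0.36 ± 0.03 (adjusted p = 5.47e-12). COX6C, a small nuclear subunit, fell most in the complex. Its values were 150.4, 148.4, 145.9 and 160.8 CPM at 0 h, 119.4, 115.1, 112.8 and 108.9 CPM after DMSO recovery, and 120.1, 103.6, 112.0 and 105.7 CPM after UNC0642 recovery. The changes were -0.41 ± 0.04 (adjusted p = 4.25e-10) and -0.45 ± 0.04 (adjusted p = 3.11e-11), without overlap. COX7C, which had the highest level per length of all members, changed by -0.23 ± 0.03 in each comparison, both called, but with an offset for gene length and GC content these calls were lost (-0.04, adjusted p = 0.21, and -0.02, adjusted p = 0.62). COX5A (-0.11 ± 0.04 and -0.09 ± 0.04) and COX5B (-0.12 ± 0.04 and -0.14 ± 0.04) were called lower by small margins. With an offset for gene length both genes lost their calls in both comparisons, with COX5B at -0.02 (adjusted p = 0.717) and -0.04 (adjusted p = 0.25). Calls were also lost for COX5A after UNC0642 recovery without 0 h 1, 0 h 3, UNC0642 1, UNC0642 2 or UNC0642 3, with adjusted p from 0.0572 to 0.127, and for COX5B after DMSO recovery without 0 h 4 (adjusted p = 0.0519).

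Several complex IV subunits have a ubiquitous form and another that marks muscle, lung or testis, and HCT116 cells held almost only the ubiquitous forms. COX4I2 (lung), COX6A2 (heart and muscle) and COX7B2 were at 0 counts in all 12 libraries, and COX7A1 (heart and muscle) had 20 counts in all and COX8C (testis) 3. Of the testis form COX6B2 there were 1.9, 1.2, 1.5 and 1.2 CPM at 0 h, 1.9, 2.1, 1.1 and 1.5 CPM after DMSO recovery, and 1.3, 1.4, 1.4 and 2.3 CPM after UNC0642 recovery. With COX6B2 the groups overlapped, and its errors were wide (0.17 ± 0.26 and 0.14 ± 0.26). COX6B1, its ubiquitous counterpart, was at 143.5, 136.6, 135.0 and 137.5 CPM at 0 h, at 124.4, 118.9, 121.9 and 119.5 CPM after DMSO recovery, and at 122.0, 113.8, 115.9 and 119.3 CPM after UNC0642 recovery. That is lower without overlap, by -0.19 ± 0.03 (adjusted p = 1.48e-05) and -0.23 ± 0.03 (adjusted p = 5.30e-07).

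COX6A1 stood apart from the other abundant subunits of complex IV, at 196.6, 186.6, 186.2 and 186.6 CPM at 0 h, 198.0, 196.1, 183.2 and 184.2 CPM after DMSO recovery, and 189.8, 189.0, 187.7 and 185.2 CPM after UNC0642 recovery. The groups overlapped at 0.01 ± 0.03 (adjusted p = 0.822) and -0.01 ± 0.03 (adjusted p = 0.841). With an offset for gene length COX6A1 was instead called higher, at 0.10 after DMSO recovery and 0.08 after UNC0642 recovery. COX8A was at 230.9, 234.6, 216.0 and 226.3 CPM at 0 h, at 203.6, 201.3, 205.4 and 203.3 CPM after DMSO recovery, and at 205.1, 191.8, 194.4 and 198.3 CPM after UNC0642 recovery. It was lower by -0.16 ± 0.03 (adjusted p = 3.80e-05) and -0.20 ± 0.03 (adjusted p = 7.88e-07), without overlap, and the length offset ended the first of these calls (COX8A at -0.05, adjusted p = 0.135). COX7A2, the ubiquitous form of subunit 7A, was at 161.6, 154.2, 151.3 and 164.2 CPM at 0 h, at 138.2, 133.7, 133.0 and 128.6 CPM after DMSO recovery, and at 140.9, 128.4, 129.6 and 128.1 CPM after UNC0642 recovery. It was lower by -0.24 ± 0.03 (adjusted p = 9.07e-07) and -0.26 ± 0.03 (adjusted p = 2.41e-07), again without overlap.

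Its relative COX7A2L, the supercomplex factor, was higher after DMSO recovery. Its values were 69.4, 69.3, 64.5 and 62.2 CPM at 0 h, 74.9, 69.0, 73.9 and 75.0 CPM after DMSO recovery, and 70.6, 67.1, 67.7 and 73.6 CPM after UNC0642 recovery. DMSO 2 lay within the 0 h range. The change was 0.14 ± 0.04 (adjusted p = 0.00991), a call that was lost without 0 h 4 (0.11, adjusted p = 0.0562), and COX7A2L was not called after UNC0642 recovery (0.07 ± 0.04, adjusted p = 0.204). The small subunit gene COX7B was at 100.1, 94.3, 105.1 and 96.3 CPM at 0 h, at 91.8, 80.1, 89.8 and 86.2 CPM after DMSO recovery, and at 87.4, 75.1, 73.1 and 81.9 CPM after UNC0642 recovery. Both recovery groups lay below 0 h, by -0.18 ± 0.05 (adjusted p = 0.00207) and -0.32 ± 0.05 (adjusted p = 1.88e-06), and they overlapped each other. The COX7B call after DMSO recovery was lost with the length offset (-0.07, adjusted p = 0.196), with length and GC content (-0.01, adjusted p = 0.819), with log2 FPKM (-0.09, adjusted p = 0.0698), in the short-gap libraries (-0.13, adjusted p = 0.18) and without the COL1A2 libraries (-0.18, adjusted p = 0.0796).

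**Figure D2:**
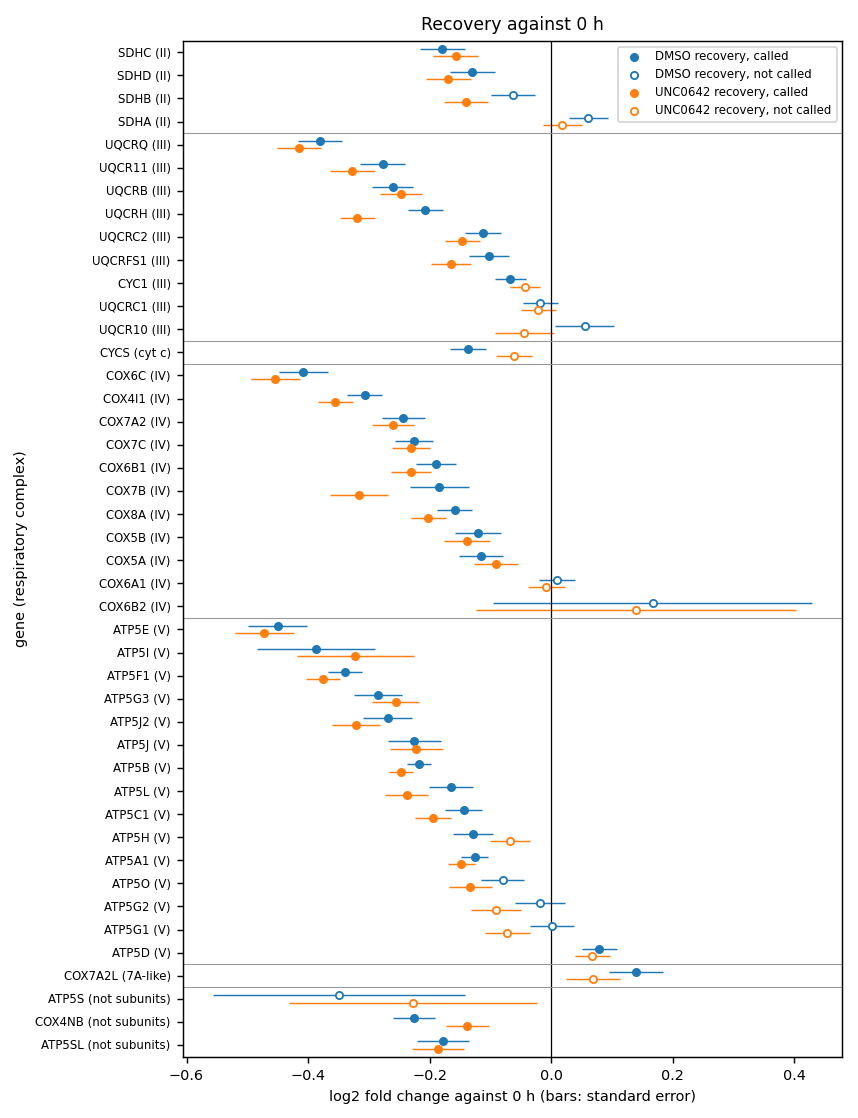
Points give each member's log2 fold change from 0 h (horizontal axis) after DMSO recovery and after UNC0642 recovery, with bars of 1 standard error and filled points for called genes, from 4 libraries a group. Most points lie left of 0, from ATP5E, COX6C and UQCRQ at the far left to COX7A2L, ATP5D and the low COX6B2 on the right.

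Complex V had 11 of 15 members lower in each comparison with 0 h, with medians of -0.16 and -0.22, and 1 higher after DMSO recovery. The catalytic head, F1, is built of alpha and beta subunits around a central shaft. ATP5A1 (alpha) was at 667.7, 701.6, 660.9 and 660.8 CPM at 0 h, at 617.7, 611.4, 616.3 and 620.3 CPM after DMSO recovery, and at 604.5, 596.3, 609.8 and 618.4 CPM after UNC0642 recovery. ATP5B (beta, which carries the catalytic sites) was at 1234.5, 1274.4, 1204.8 and 1204.2 CPM at 0 h, at 1045.1, 1054.1, 1068.8 and 1059.5 CPM after DMSO recovery, and at 1029.6, 1025.0, 1039.5 and 1050.0 CPM after UNC0642 recovery. Neither gene's groups overlapped with 0 h. ATP5A1 was lower by -0.13 ± 0.02 (adjusted p = 2.34e-05) and -0.15 ± 0.02 (adjusted p = 1.77e-06), and ATP5B by -0.22 ± 0.02 (adjusted p = 1.51e-10) and -0.25 ± 0.02 (adjusted p = 7.49e-12).

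Of the 3 genes of the central shaft, ATP5E and ATP5C1 were lower in both comparisons and ATP5D was not, though differences between them were not tested. ATP5E (epsilon) had the largest fall of all members in the fit reported. Its values were 159.4, 151.3, 161.7 and 178.2 CPM at 0 h, 131.9, 113.6, 114.8 and 115.2 CPM after DMSO recovery, and 128.6, 108.9, 110.1 and 120.7 CPM after UNC0642 recovery. The log2 fold changes were -0.45 ± 0.05 (adjusted p = 3.51e-09) and -0.47 ± 0.05 (adjusted p = 1.04e-09), or -26.8% and -27.9%. With an offset for gene length and GC content they were -0.26 and -0.24, both still called. UQCRQ then fell most, at -0.40 and -0.46. In every group the short-gap libraries of ATP5E lay above its long-gap ones. Within the short-gap libraries, where DMSO 1 alone stands for its group, ATP5E changed by -0.365 and -0.447. Within the long-gap libraries it changed by -0.44 and -0.503. The neighbouring shaft gene ATP5D (delta) was at 196.9, 198.6, 186.8 and 188.1 CPM at 0 h, at 203.4, 199.9, 210.2 and 200.8 CPM after DMSO recovery, and at 205.4, 204.1, 196.1 and 202.5 CPM after UNC0642 recovery. It was higher by a small amount after DMSO recovery (0.08 ± 0.03, adjusted p = 0.0266), a call lost without 0 h 3, 0 h 4 or DMSO 3 (adjusted p = 0.101, 0.0883 and 0.111), in the libraries of either gap class alone, without the COL1A2 libraries and with length and GC content. After UNC0642 recovery ATP5D changed by 0.07 ± 0.03 (adjusted p = 0.0537). It was called higher there in 11 of 29 other settings. Among these were library totals, the gap class as a covariate, offsets for effective length or gene length, and log2 FPKM. The remaining shaft gene ATP5C1 (gamma) was lower in both, at -0.14 ± 0.03 and -0.19 ± 0.03.

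The c ring, which turns as protons pass, is made from 3 genes that encode the same mature protein. ATP5G1 was at 117.6, 106.6, 106.7 and 107.3 CPM at 0 h, at 112.0, 110.7, 111.5 and 104.8 CPM after DMSO recovery, and at 106.4, 105.8, 100.8 and 104.1 CPM after UNC0642 recovery. ATP5G2 was at 141.0, 132.6, 147.8 and 145.9 CPM at 0 h, at 154.3, 136.5, 132.9 and 135.7 CPM after DMSO recovery, and at 134.4, 124.6, 132.9 and 140.1 CPM after UNC0642 recovery. Neither was called in a comparison with 0 h (ATP5G1 0.00 ± 0.04 and -0.07 ± 0.04, ATP5G2 -0.02 ± 0.04 and -0.09 ± 0.04). ATP5G2 was called lower after UNC0642 recovery without 0 h 2, DMSO 1 or UNC0642 4 (adjusted p = 0.0202, 0.046 and 0.0244). That call also came with the gap class as a covariate, no filter, a replicate block, only the 8 libraries compared, and length with GC content. By contrast ATP5G3 was at 277.3, 269.4, 271.9 and 275.7 CPM at 0 h, at 244.0, 207.7, 222.8 and 222.9 CPM after DMSO recovery, and at 244.0, 211.7, 218.1 and 241.9 CPM after UNC0642 recovery. ATP5G3 was lower without overlap, by -0.29 ± 0.04 (adjusted p = 3.39e-07) and -0.26 ± 0.04 (adjusted p = 1.76e-06). Per length, as a share of the summed FPKM of the 3 genes, ATP5G3 made up 20.6% ± 0.421 (SD, n = 4) at 0 h, 17.4% ± 0.809 in the DMSO group and 18.7% ± 1.01 in the UNC0642 group, and ATP5G1 44.2%, 46.6% and 45.7%.

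The stalk that holds the head still, and the subunits that sit in the membrane beside the ring, were mostly lower. Stalk subunit b, ATP5F1, changed by -0.34 ± 0.03 and -0.38 ± 0.03, and coupling factor gene ATP5J by -0.22 ± 0.04 in each, all called. ATP5H (subunit d) was called only after DMSO recovery (-0.13 ± 0.03, against -0.07 ± 0.03), and ATP5O, through which oligomycin sensitivity is conferred, only after UNC0642 recovery (-0.08 ± 0.04, against -0.13 ± 0.04). Neither call was lost when any 1 library was left out, but both were lost with library totals and with log2 FPKM. ATP5H after DMSO recovery was then at -0.07 (adjusted p = 0.0611) and -0.05 (adjusted p = 0.203). ATP5O after UNC0642 recovery was then at -0.07 in each (adjusted p = 0.0795 and 0.162), and it was at -0.05 in the short-gap libraries. The missing calls depended on single libraries, since ATP5O was called lower after DMSO recovery without 0 h 3, 0 h 4 or DMSO 3 (adjusted p = 0.0365, 0.0424 and 0.0138), and ATP5H after UNC0642 recovery without UNC0642 4 (adjusted p = 0.0154). With the length offset ATP5H lost its call after DMSO recovery (-0.05, adjusted p = 0.161), as it did with length and GC content (-0.01, adjusted p = 0.778). Of the membrane subunits ATP5I (e), ATP5J2 (f) and ATP5L (g), ATP5J2 changed by -0.27 ± 0.04 and -0.32 ± 0.04, and ATP5L by -0.16 ± 0.04 and -0.24 ± 0.04. ATP5I varied most among the abundant members, at 99.2, 83.9, 112.2 and 117.3 CPM at 0 h, 100, 71.3, 71.8 and 70.8 CPM after DMSO recovery, and 92.2, 65.8, 73.3 and 97.1 CPM after UNC0642 recovery. Its groups overlapped and its calls (-0.39 ± 0.10 and -0.32 ± 0.10, adjusted p = 0.00142 and 0.00616) were lost with DESeq2 (adjusted p = 0.0582 and 0.122). In every group its short-gap libraries lay above the long-gap ones, as did those of ATP5E, ATP5J2 and ATP5G2.

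The 3 genes matched by name that encode no subunit were also measured. COX4NB, a subunit gene of the ER membrane complex that lies beside COX4I1, was lower in both comparisons (-0.23 ± 0.04 and -0.14 ± 0.04). ATP5SL, an assembly factor of complex I, was lower too (-0.18 ± 0.04 and -0.19 ± 0.04). ATP5S had 1.48 to 3.73 CPM before scaling between libraries and was not called (-0.35 ± 0.21 and -0.23 ± 0.20). With COX6B2, at 1.07 to 2.28 CPM, it was the member nearest the threshold for inclusion, and the next, ATP5SL, was at 51.5 to 61.3 CPM. Of the 8 names left out, the highest was COX7A1 at 0.333 CPM. ATP5L2 had 23 counts over all libraries, and the read-through ATP5J2-PTCD1 had 0. No label gives the strand used in counting, and reads of adjoining genes such as COX4I1 and COX4NB may not be separable.

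UNC0642 recovery against DMSO recovery asks what the earlier presence of the inhibitor added. Of 44 members 1, UQCRH, was lower and 43 were not called, with 2.53% of all genes called lower and 2.06% higher. None was called higher by edgeR, DESeq2 or limma-voom, and at an unadjusted p under 0.05 the counts were 5 lower and 2 higher. The median was -0.03, or -2.16%, beside 0.00 for all genes. Groups did not overlap in 3 members (6.82%, against 10.5% of all genes): UQCRH and UQCRFS1 lay lower and COX4NB higher, beside 5.42% and 5.05% of all genes. The change in UQCRH was -0.11 ± 0.03 (adjusted p = 0.0181), with 4 of 4 UNC0642 libraries below the DMSO libraries. It was not called without DMSO 1 (-0.10, adjusted p = 0.059) or without UNC0642 2 (-0.09, adjusted p = 0.0817). COX7B had the lowest estimate (-0.13 ± 0.05, adjusted p = 0.114), and it was called lower in 7 of 29 other settings. These were the fit without UNC0642 1 (-0.18, adjusted p = 0.0248), no filter, the gap class as a covariate, offsets for effective length or gene length, log2 FPKM, and the long-gap libraries. Without UNC0642 3, CYCS was called higher (0.10, adjusted p = 0.0436).

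For most subunits the data bound the difference between the recovery groups closely. The 95% interval of the log2 difference ran from -0.07 to 0.01 for ATP5B, from -0.07 to 0.02 for ATP5A1, from -0.11 to 0.01 for COX4I1, from -0.06 to 0.06 for UQCRC1, from -0.03 to 0.08 for CYC1 and from -0.11 to 0.02 for SDHA. Over the 44 members the lowest and highest bounds were -0.54 for COX6B2 and 0.54 for ATP5S, the members with the fewest counts. An adjusted p above the threshold does not show that the recovery groups were alike in these genes.

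**Figure D3:**
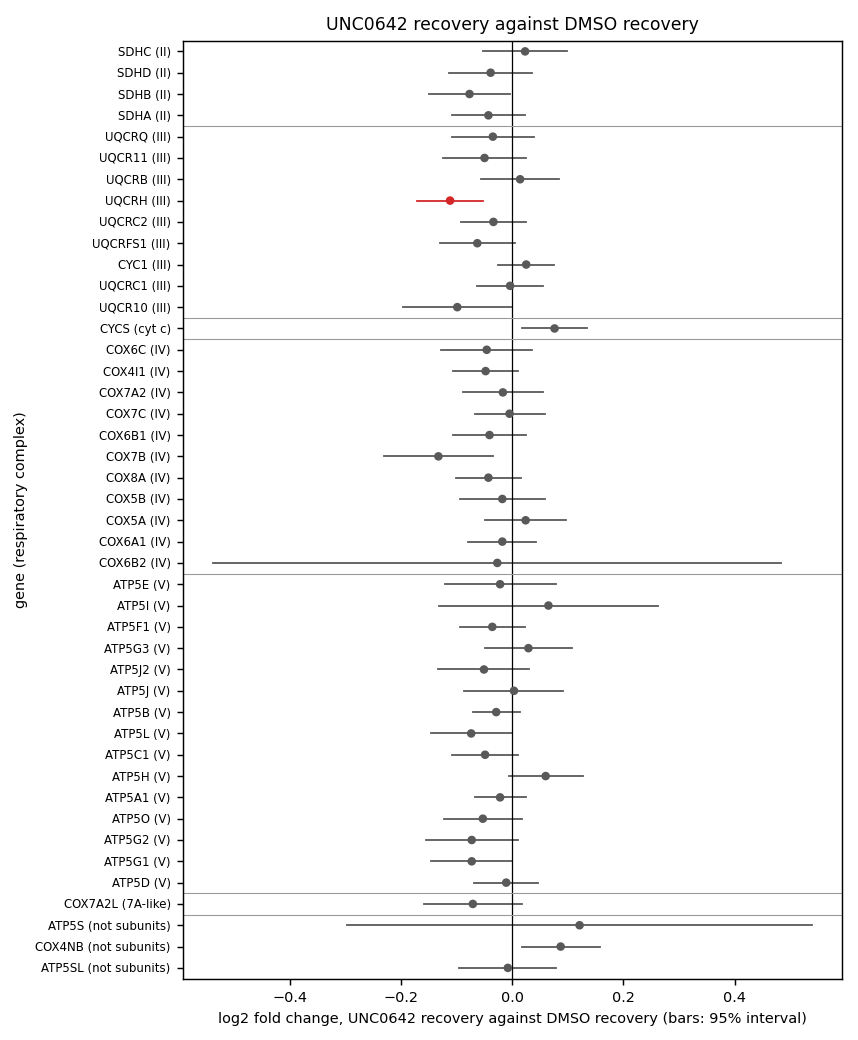
Points are the members' log2 differences between UNC0642 recovery and DMSO recovery, with 95% intervals as bars, from 4 libraries a group. Most intervals include 0, and UQCRH (red), at -0.11, was the gene called.

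Levels of different genes were compared per length, in FPKM as deposited. At 0 h the median member was at 179 FPKM and the median of all genes tested at 9.73, so that the median member lay at the 96.3rd percentile, and 33 members were at 100 FPKM or more. COX7C led at 796.4 FPKM, followed by ATP5B (691.4), COX4I1 (609.4), UQCRH (593.5) and COX8A (558.8). At the other end were SDHC (36.18), ATP5S (1.938) and COX6B2 (0.905). Summed over subunits, complex II was at 315.7 ± 5.93 FPKM (SD, n = 4) at 0 h, 314.8 ± 6.89 in the DMSO group and 304.3 ± 4.48 in the UNC0642 group. Complex III was at 1687 ± 58.8, 1602 ± 13.9 and 1537 ± 15.4 FPKM in the same order. For complex IV the sums were 3900 ± 125, 3624 ± 41.4 and 3492 ± 48.1 FPKM, and for complex V 4283 ± 62.9, 3928 ± 79.6 and 3838 ± 66.0 FPKM. Complexes IV and V in both recovery groups, and complex III after UNC0642 recovery, lay below every 0 h library. Complex II overlapped between 0 h and each recovery group and complex III between 0 h and DMSO recovery (DMSO 1 at 1619 FPKM against 1617 in 0 h 3), and the order of the complexes did not change. FPKM are not scaled between libraries as the CPM values are, and the median gene was 0.05 higher on the log2(FPKM + 1) scale after either recovery.

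**Figure D4:**
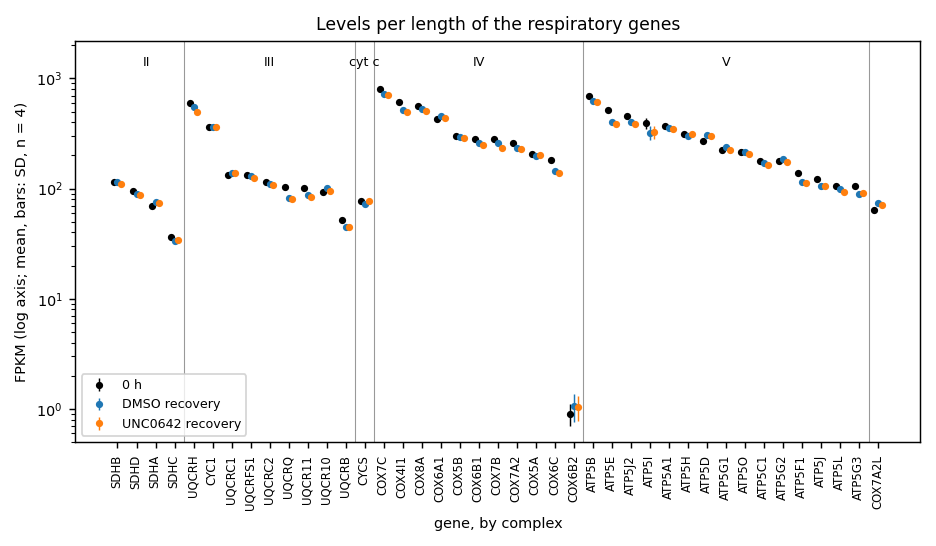
Mean FPKM of each subunit gene and COX7A2L (vertical axis, logarithmic) in the 3 groups, with bars of 1 SD over 4 libraries, genes being ordered by level within each complex. COX7C (796.4 FPKM at 0 h) and ATP5B (691.4) lie at the top, and COX6B2 (0.905) lies far below all others drawn.

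The members are shorter than genes at large, and over all genes length moved with the change. The deposited lengths of the members ran from 365 to 5538 bases with a median of 1130, against 2946 for all genes tested. Across all genes tested, Spearman's rho between length and the log2 fold change was 0.21 after DMSO recovery and 0.16 after UNC0642 recovery, and across the 44 members it was 0.04 and 0.16, where genes are not independent replicates. Among genes under 1000 bases, 15 of 21 members (71.4%) were lower after DMSO recovery, and 40.3% of the 724 other genes were. Among longer genes 17 of 23 members (73.9%) were lower, and 20.4% of the 11973 others. After UNC0642 recovery the shares were 71.4% against 40.7% under 1000 bases and 69.6% against 22.4% above. With an offset per library for gene length, 27 members were lower and 4 higher after DMSO recovery, and 31 lower and 2 higher after UNC0642 recovery. Over all genes the shares called lower in that fit were 32.1% and 33.5%, and the shares called higher were 16% and 16.7%. That offset also replaces the usual scaling between libraries, so the shift over all genes mixes scaling with length.

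**Figure D5:**
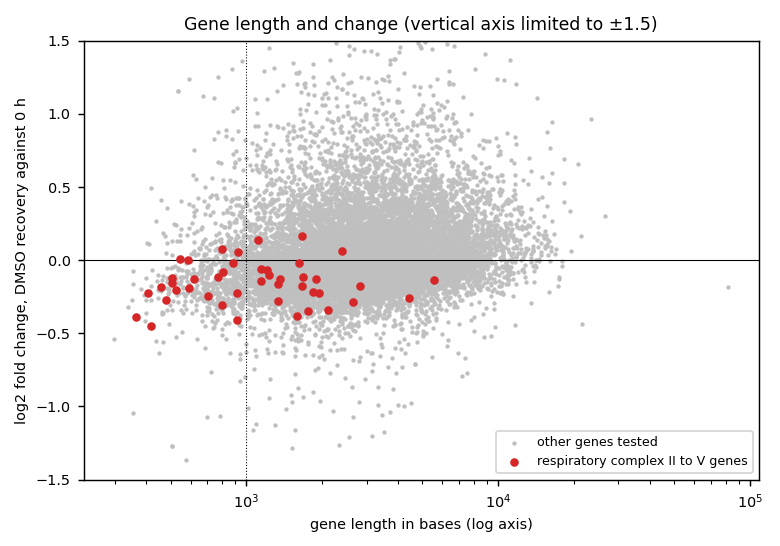
Gene length in bases (logarithmic horizontal axis) against the log2 fold change of DMSO recovery from 0 h, with members in red over the other genes tested in grey and a dotted line at 1000 bases. Most members lie below 0 on both sides of that line, at a median of -0.18 under 1000 bases and -0.14 from 1000 bases upward.

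Genes that build, feed or control these complexes were read from lists of the same pathway, beside 21.7% of all genes called lower and 22.4% higher after DMSO recovery, and 23.6% and 23.4% after UNC0642 recovery. Of 32 assembly factors of complexes II to V, 11 were lower and 1 higher after DMSO recovery, and 14 lower and 2 higher after UNC0642 recovery, with medians of -0.08 and -0.07. TTC19, an assembly factor of complex III, was higher at 0.46 ± 0.04 and 0.42 ± 0.04, while TACO1, which activates translation of a mitochondrial COX subunit, was lower at -0.40 ± 0.04 and -0.39 ± 0.04, and ATPAF1, which assembles F1, at -0.21 ± 0.04 and -0.26 ± 0.04. Between the recovery groups LRPPRC, which stabilises mitochondrial mRNAs, was lower at -0.09 ± 0.02 (adjusted p = 0.0323). Of 26 import and chaperone genes 20 and 21 were lower and the rest not called, led by the translocase genes TIMM50 (-0.44 ± 0.04 and -0.49 ± 0.04) and TOMM22 (-0.39 ± 0.03 and -0.42 ± 0.03). HSPD1, the matrix chaperonin, was lower at -0.15 ± 0.02 and -0.23 ± 0.02 and also between the recovery groups (-0.09 ± 0.02, adjusted p = 0.00108).

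Among 16 regulators of nuclear respiratory genes 10 were lower and 1 higher after DMSO recovery, and 11 lower and 1 higher after UNC0642 recovery. MYC changed by -0.30 ± 0.02 and -0.26 ± 0.02, and POLRMT, the mitochondrial RNA polymerase, by -0.16 ± 0.03 and -0.18 ± 0.03. The factors whose letters were searched in the promoters were lower too: GABPB1 at -0.35 ± 0.06 and -0.38 ± 0.06, GABPA at -0.22 ± 0.06 and -0.31 ± 0.06, and NRF1 at -0.23 ± 0.06 in each. YY1 was called only after UNC0642 recovery (-0.08 ± 0.03 and -0.10 ± 0.03). SP1 was lower after DMSO recovery (-0.11 ± 0.03, adjusted p = 0.00517), after UNC0642 recovery (-0.23 ± 0.03) and between the recovery groups (-0.12 ± 0.03, adjusted p = 0.0265). The coactivator gene PPARGC1B was the 1 higher after DMSO recovery (0.19 ± 0.06), and ESRRA, a nuclear receptor that acts with it, the 1 higher after UNC0642 recovery (0.10 ± 0.04). Any part of these factors in the members' values was not tested.

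The citric acid cycle, which supplies succinate to complex II, was mixed, with 4 of 14 enzymes higher and 7 lower after DMSO recovery, and 4 higher and 6 lower after UNC0642 recovery, beside 22.4% and 23.4% of all genes called higher. IDH2 rose by 0.63 ± 0.06 and 0.70 ± 0.06 and OGDH by 0.29 ± 0.04 and 0.27 ± 0.04, while citrate synthase, CS, was lower at -0.18 ± 0.03 and -0.20 ± 0.03. Complex I, which feeds electrons from NADH into the same chain, had 24 of 37 subunits lower in each comparison with 0 h and the rest not called, with medians of -0.15 in both. NDUFB8 of complex I was lower at -0.45 ± 0.04 and -0.46 ± 0.04.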

How the data were processed

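RNA of 12 HCT116 libraries was sequenced. Per the submitters' processing notes, RSEM 1.2.4 and Bowtie were used with hg18, and per the file headers the deposited values are expected counts (estimated per gene, not always whole numbers), FPKM (fragments scaled to gene length and library size), lengths and effective lengths per gene. TPM were not used. Groups come from the titles and treatment labels. Members and gene lists were chosen with earlier results of these data known. A marker gene of the epithelial list is not reported here, and its sums leave it out.

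Expected counts were rounded, filtered with filterByExpr (12741 of 18969 genes) and tested two-sided with edgeR 4.0.16 in R 4.3.3, with TMM factors and all 12 libraries in 1 fit. Benjamini-Hochberg adjustment covered all genes tested. Log2 fold changes carry standard errors of the fit, and CPM are scaled by the TMM factors. The biological coefficient of variation was 3.44%. In the 18 pairs of libraries within groups, chi-square over its degrees of freedom was 2.02 to 3.55, more than counting noise alone gives. Libraries made separately from the same culture could also reach this, so the ratio does not show separate cultures. The tests were tried on simulated counts beforehand.

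Values in each library are given for core subunits, for the called members with the largest rise and fall of each complex, for isoforms, and for members called between the recovery groups. ATP5I was added after its values were seen. Lists contribute up to 3 genes each by p, besides the factors of the motif search and a few named for their role. Other settings were RLE factors, library totals, other filters, DESeq2 1.42.0, limma-voom and log2(FPKM + 1) in limma 3.58.1, unrounded counts, offsets for effective length, gene length, or length with GC content (100% of members had a GC value), length-gap class as a covariate, a replicate block, only the 8 libraries compared, and each library left out in turn. The offsets for gene length, with or without GC content, took the place of the TMM factors. Added after the data were seen were the fits without libraries with COL1A2 above 1 CPM and within each length-gap class.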

Additional observations from a re-analysis of the deposited data

Results flagged for a closer look

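Of 132 groups of 4 libraries (44 members in 3 groups), 11 held a library far from the other 3 by Dixon's test at the 95% level, where chance alone flags about 5%. At 0 h these were ATP5A1 at 701.6 CPM in 0 h 2 (the others 660.8 to 667.7), ATP5G1 at 117.6 CPM in 0 h 1 (106.6 to 107.3), COX6A1 at 196.6 CPM in 0 h 1 (186.2 to 186.6) and ATP5SL at 63.0 CPM in 0 h 4 (58.8 to 59.5). After DMSO recovery all 5 were in DMSO 1, the only short-gap library of its group. ATP5E was at 131.9 CPM there (113.6 to 115.2 in the others), ATP5G2 at 154.3 CPM (132.9 to 136.5), ATP5I at 100 CPM (70.8 to 71.8) and UQCRQ at 125.3 CPM (117.1 to 118.5), while COX4NB was low at 92.9 CPM (98.7 to 99.3). After UNC0642 recovery these were COX7A2 at 140.9 CPM in UNC0642 1 (128.1 to 129.6) and COX6B2 at 2.3 CPM in UNC0642 4 (1.3 to 1.4).

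UQCRH differed between the recovery groups in its change from 0 h, by a log2 difference of -0.112 (adjusted p = 0.0181 in edgeR), with the 0 h libraries shared by both changes.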

How the results depend on the processing

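Each count was recomputed under 29 other settings. The number of members lower after DMSO recovery (32) and after UNC0642 recovery (31) ranged from 30 to 33 when any 1 library was left out. Outside those fits it reached 21 with log2 FPKM and 16 in the short-gap libraries for DMSO recovery, where only DMSO 1 stands for its group and is assumed to vary like the others. Library totals alone gave 25 and 26, and the fit without the 6 COL1A2 libraries 24 and 23, where 0 h 4 alone stands for 0 h and other groups supply the spread. The number higher after DMSO recovery (2) was 4 with offsets for gene length, for length with GC content, and with log2 FPKM, 1 without the COL1A2 libraries and in the short-gap libraries, and 0 in the long-gap libraries. After UNC0642 recovery (0) it was 3 with library totals, 2 with the length offset, log2 FPKM and the short-gap libraries, and 1 with the stricter filter, the gap class as a covariate, effective-length offsets, and length with GC content. Between the recovery groups the number lower (1) was 2 with no filter, the class covariate, effective length, length, length with GC content, log2 FPKM and the long-gap libraries, and 0 in the short-gap libraries. The number higher (0) was 1 with length and GC content and without the COL1A2 libraries. Leaving out single libraries gave 0 to 2 and 0 to 1 higher against 0 h, 0 to 1 higher and 0 to 2 lower between the recovery groups. The cause of these shifts was not tested.

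Among values called in the reported or the other fit, signs turned in 2 cases: COX6A1 after UNC0642 recovery was 0.075 with the length offset (adjusted p = 0.0378), and CYC1 after DMSO recovery was 0.002 in the short-gap libraries. Of 1276 member values per comparison, 1191, 1205 and 1262 kept their side of the threshold, and 1164, 1180 and 1189 their sign as well. Signs differed under some setting in 10, 10 and 21 members, all uncalled in the reported fit except CYC1 after DMSO recovery, among them ATP5S after UNC0642 recovery (-0.34 to 0.41), ATP5H (-0.13 to 0.05) and COX7A2L (-0.04 to 0.19), and UQCR10 after DMSO recovery (-0.09 to 0.16). Of all genes called after DMSO recovery 50.8% were higher, 67.5% with library totals, 68.5% with log2 FPKM and 33.3% with the length offset, and after UNC0642 recovery 49.8%, 67.5%, 67.3% and 33.3%. The median of the members was -0.11 and -0.12 with library totals, beside 0.06 and 0.07 for all genes. With log2 FPKM it was -0.09 and -0.12, beside 0.05 for all genes in each. With length and GC content it was -0.10 and -0.14, beside -0.05 for all genes in each. Replicate numbers did not pair the libraries: correlations of same-numbered libraries were -0.10 to 0.04, and 1 of 12 correlated best with its own number. With a replicate block 32, 32 and 1 members were lower.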
